A study of Mus musculus with 6 samples.

Results

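The 10 genes described here encode proteins or peptides that fat cells secrete: adipsin (Cfd), adiponectin (Adipoq), resistin (Retn), leptin (Lep), retinol-binding protein 4 (Rbp4) and angiotensinogen (Agt), together with the brown fat factors Nrg4, Bmp8b, Cxcl14 and Metrnl. Their rows were taken from the table by gene name. Of the 54385 gene rows in the table all 10 were present, and all 10 were among the 18114 genes that passed a filter on low counts and were tested.

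The 6 RNA libraries were made from brown fat of C57BL/6N mice. The wild-type group (WT, genotype wt/wt, 3 libraries) was compared with ADCY3∆AT (3 libraries), which the labels also call Adcy3-AT KO, a knockout of the protein form called AT; Adcy3 itself is an adenylyl cyclase and produces the messenger cyclic AMP. The mice of both groups were 20 weeks old, had eaten chow until 8 weeks and the high-fat diet D12492 for 12 weeks, and were held at 4 °C for 24 hours. Warm-housed or lean mice were not analysed here, so the values compare genotypes in the cold and on high-fat diet only. The sample labels name interscapular brown fat and the series text inguinal brown fat; the sample labels were followed. The labels do not say whether each library is 1 mouse, so p-values here reflect only how much these libraries vary, which may be technical. Nor do they say how or in which cells the AT form was removed.

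Adipokines are hormones and other proteins released by adipocytes. Adipsin, adiponectin, leptin and resistin are best known from white fat, while the term batokine is used for factors released by brown fat, which signal to nerves, liver, immune cells and the fat itself. Brown fat in the cold burns fuel through the uncoupling protein Ucp1, and cyclic AMP downstream of noradrenaline is the main signal that drives it.

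Library totals were 44826777 to 54933588 estimated counts, of which the 10 genes held 0.0691% to 0.0852%. Levels are given in CPM, the usual unit of counts relative to the library total, after scaling by TMM, a method that balances libraries on the bulk of their genes. As a check of the tissue, Ucp1 stood at 10486 ± 160 CPM in WT and 10092 ± 138 in ADCY3∆AT (SD, n = 3 each). The general adipocyte genes Plin1 and Fabp4 differed by 0.04 ± 0.07 and 0.01 ± 0.06 on the log2 scale (SE). They belong to a list of 18 general adipocyte markers, 11 with fold changes above 0 and 7 below. Of the 18, 2 were higher and 2 lower without overlap between genotypes, where 7.68% and 8.83% of all genes were. In edgeR 0 of the 18 passed. DESeq2 passed 1, Acvr1c at -0.36 ± 0.08, against 0.721% of all genes in the lower direction. As a check of the genotype, the row for the whole Adcy3 gene stood at 677, 728 and 652 CPM in WT and 349, 342 and 506 in ADCY3∆AT. The log2 fold change of Adcy3 was -0.78 ± 0.14, with an adjusted p of 0.158 in edgeR and 4.23e-07 in DESeq2. ADCY3∆AT replicate 3 was nearer to WT than the other ADCY3∆AT libraries, and it stands apart for several genes below. Without it Adcy3 was at -0.99 with an edgeR adjusted p of 0.00338, and so passed. In that fit 0 members passed in edgeR, against 0.355% of all genes and 0.21% in the lower direction. The marker genes of skeletal muscle, 30 of 30 with a lower fold change in ADCY3∆AT, summed to 1932 to 4948 CPM in WT and 313 to 1028 in ADCY3∆AT. Endothelial markers summed to 1314 to 1366 CPM in WT and 1405 to 1481 in ADCY3∆AT. Of these, 6 of 10 did not overlap, all higher in ADCY3∆AT, where 7.68% of all genes were higher without overlap. Of 7 hepatocyte markers 3 were tested; Cyp2e1, which led their sum, stood at 33.7 to 46.5 CPM in WT and 15.8 to 24.3 in ADCY3∆AT, while Serpina1a and Apoa2 overlapped and Alb, Apoa1, Ttr and Fgb did not pass the low-count filter. The part of these marker differences in any result below was not tested, and in bulk tissue fewer cells of a type and less RNA per cell cannot be told apart.

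Adipsin and neuregulin 4 were the members with lower levels in every ADCY3∆AT library than in any WT library. Adipsin stood at 60.4% of its WT mean and neuregulin 4 at 81.5%. Leptin had the largest fold change of the 10, toward higher levels, but its ADCY3∆AT libraries differed among themselves by 9.95-fold. Adiponectin, the most abundant of the 10, was at 97.3% of its WT mean. With edgeR's quasi-likelihood test and Benjamini-Hochberg adjustment over all genes, 0 of the 10 members passed an adjusted p of 0.05, against 0.00552% of all genes, which was 1 gene. DESeq2 passed 2 of the 10, Cfd and Nrg4, against 1.17% of all genes, 0.721% lower and 0.449% higher. At an unadjusted p under 0.05 edgeR gave these same 2 members, both lower, where 5.78% of all genes were lower and 5.23% higher. The WT and ADCY3∆AT libraries did not overlap for 2 of 10 members, both lower, against 8.83% of all genes lower and 7.68% higher. In all, 8 of the 10 fold changes were below 0, with a median log2 value of -0.15, while the median of all tested genes was 0.0039 and 50.9% of them were above 0. The members were chosen with earlier results of these data known, so these counts are not a test of the group.

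**Figure D1:**
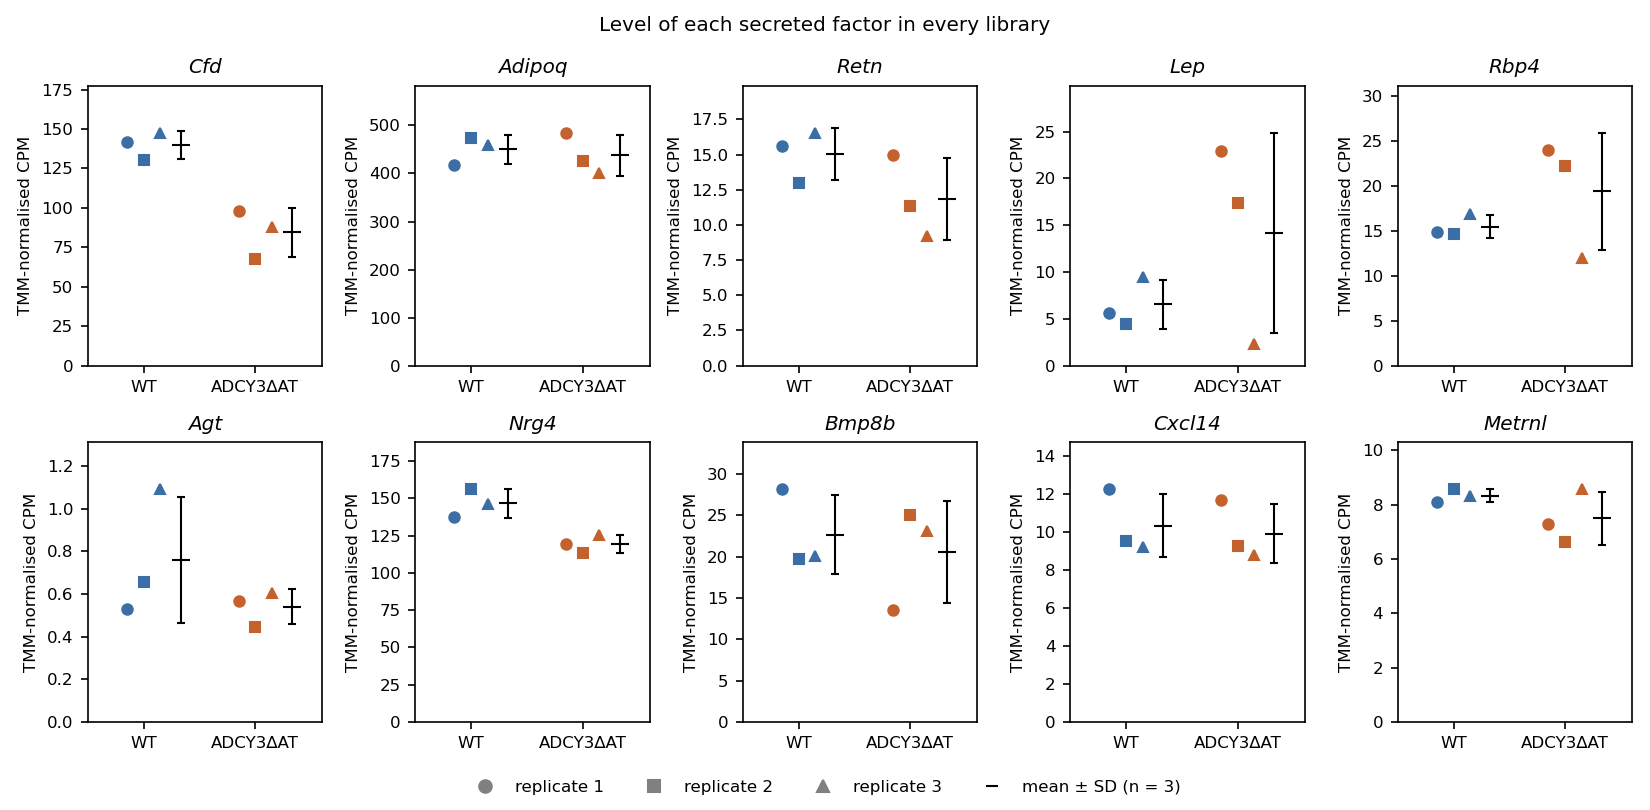
TMM-normalised CPM (vertical axis, starting at 0, a separate scale for each gene) of the 10 secreted factors in each library, by genotype; symbols mark the replicate number and the bar is the mean ± SD of 3 libraries. Cfd and Nrg4 do not overlap between genotypes, and Lep spans 2.30 to 22.9 CPM within ADCY3∆AT.

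The 250 bases before the transcription start were read for the 2 genes that were lower in every library, for Lep, whose libraries spread most, and for Adipoq, whose level is the base of the ratios given later. They are from RefSeq, build GRCm38.p6, on the strand of the gene, 5′ to 3′; all 10 members had an entry. Capitals mark matches to the motifs described after them.
Cfd, chr10:79890603-79890852, plus strand: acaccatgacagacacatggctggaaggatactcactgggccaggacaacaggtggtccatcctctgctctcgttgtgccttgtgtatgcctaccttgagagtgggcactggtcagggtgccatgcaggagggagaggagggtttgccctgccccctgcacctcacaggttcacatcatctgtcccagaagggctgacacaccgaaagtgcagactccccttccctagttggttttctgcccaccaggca
Nrg4, chr9:55283626-55283875, minus strand: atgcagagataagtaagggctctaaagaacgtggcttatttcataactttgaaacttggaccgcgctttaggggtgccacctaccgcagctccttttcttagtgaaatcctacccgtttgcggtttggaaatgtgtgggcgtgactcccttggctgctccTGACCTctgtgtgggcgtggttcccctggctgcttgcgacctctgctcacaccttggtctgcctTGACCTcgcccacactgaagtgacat
Lep, chr6:29059971-29060220, plus strand: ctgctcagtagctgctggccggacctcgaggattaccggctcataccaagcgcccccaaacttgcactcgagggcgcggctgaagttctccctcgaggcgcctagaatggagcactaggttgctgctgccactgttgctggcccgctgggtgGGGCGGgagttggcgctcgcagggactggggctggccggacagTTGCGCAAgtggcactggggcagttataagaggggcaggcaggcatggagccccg
Adipoq, chr16:23146286-23146535, plus strand: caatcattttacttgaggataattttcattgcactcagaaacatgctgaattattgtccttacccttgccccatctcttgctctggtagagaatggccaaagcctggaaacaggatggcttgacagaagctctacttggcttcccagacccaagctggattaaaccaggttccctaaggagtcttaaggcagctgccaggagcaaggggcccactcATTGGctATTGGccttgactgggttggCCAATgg
Both strands were searched for the cyclic AMP response motif TGACG, for CCAAT and for TATAAA, for the E-box CACGTG, the GC box GGGCGG, the nuclear receptor motif AGGTCA, its direct repeat with 1 base between the copies, and the C/EBP motif TTGCGCAA. Of 32851 mouse promoter windows of the same length, TGACG was in 17.8%, CCAAT in 33.8%, TATAAA in 12.4%, CACGTG in 6.02%, GGGCGG in 32.7%, AGGTCA in 14%, the direct repeat in 0.0335% and TTGCGCAA in 0.164%. The Cfd window held none of these. The Nrg4 window held AGGTCA on the opposite strand at -90 and -26 from the start. The Lep window held GGGCGG at -98 and TTGCGCAA at -55, the least frequent of the motifs found in any of the 4 windows. The Adipoq window held CCAAT on the opposite strand at -34 and -27 and on the gene's own strand at -7. The Nrg4 window starts from a RefSeq transcript whose start lies inside the longer span that the gene annotation gives. A match is a run of letters and not evidence of binding.

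Cfd (ENSMUSG00000061780, chr10:79890853-79892655, plus strand) encodes adipsin, also called complement factor D, the serine protease that starts amplification in the alternative complement pathway. It measured 142, 130.5 and 148 CPM in the 3 WT libraries and 98.1, 67.7 and 87.8 in the 3 ADCY3∆AT libraries. The highest ADCY3∆AT library lay below the lowest WT library. The means were 139.95 ± 8.73 and 84.5 ± 15.5 CPM (SD, n = 3 each). The log2 fold change was -0.73 ± 0.12 (SE, 95% interval -1.01 to -0.44), with an adjusted p of 0.148 in edgeR and 4.44e-07 in DESeq2, and a rank by edgeR p of 36 among all genes. Without a filter on low counts, edgeR itself gave Cfd an adjusted p of 0.00286, in a fit where 0.697% of genes passed and 0.505% were lower. Across all alternatives the adjusted p ran from 4.44e-07 to 0.589, the last without ADCY3∆AT replicate 2. Leaving out 1 library at a time kept the log2 fold change between -0.85 and -0.59, and without ADCY3∆AT replicate 3 it was -0.76 with an edgeR adjusted p of 0.0801. No other annotated gene shares a 31-base stretch with the Cfd transcripts.

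Of 15 other genes listed for the alternative complement pathway and its control, 12 were tested. Fold changes were above 0 for 8 and below 0 for 4, and 0 passed in edgeR or DESeq2. An unadjusted p under 0.05 was found for 1, which was lower, where 5.78% of all genes were lower at that p in edgeR. That 1 was Clu, which encodes clusterin, an inhibitor of the terminal complement complex, at -0.43 ± 0.16 on the log2 scale with an edgeR adjusted p of 0.386. C5ar2, a receptor for the fragment C5a, was at 0.85 ± 0.38. C3, the central component whose convertase adipsin helps to form, was named for that role after its values were seen. It stood at 611 ± 68.9 CPM in WT and 605 ± 40.2 in ADCY3∆AT. Cfi, which cleaves the C3 fragment C3b, was listed at 0 in every library.

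Adipoq (ENSMUSG00000022878, chr16:23146536-23158028, plus strand) encodes adiponectin, an insulin-sensitising hormone. It measured 417, 474 and 460 CPM in WT and 485, 427 and 401 in ADCY3∆AT. The groups overlapped over nearly their whole range. On the log2 scale the difference was -0.04 ± 0.08 (95% interval -0.23 to 0.15), with an edgeR adjusted p of 0.893. Without ADCY3∆AT replicate 3 its sign turned, to 0.019, and without replicate 1 it was -0.12. Of 10 tested genes for the assembly and secretion of adiponectin, 7 had fold changes above 0 and 3 below, and 0 passed in edgeR or DESeq2. The 2 with an unadjusted p under 0.05 were Pdia4, a protein disulfide isomerase, at 0.16 ± 0.06, and Plod2, a lysyl hydroxylase, at 0.51 ± 0.19. Both were higher, where 5.23% of all genes were higher at that unadjusted p in edgeR.

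Set against Adipoq within each library, Cfd and Nrg4 kept the separation of the groups. For every 100 Adipoq counts there were 34.0, 27.6 and 32.1 Cfd counts in WT and 20.2, 15.9 and 21.9 in ADCY3∆AT. The same ratio for Nrg4 was 32.9, 33.0 and 31.8 in WT and 24.6, 26.6 and 31.3 in ADCY3∆AT. Neither ratio overlapped between genotypes, although Nrg4 in ADCY3∆AT replicate 3 came close to the lowest WT library.

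**Figure D2:**
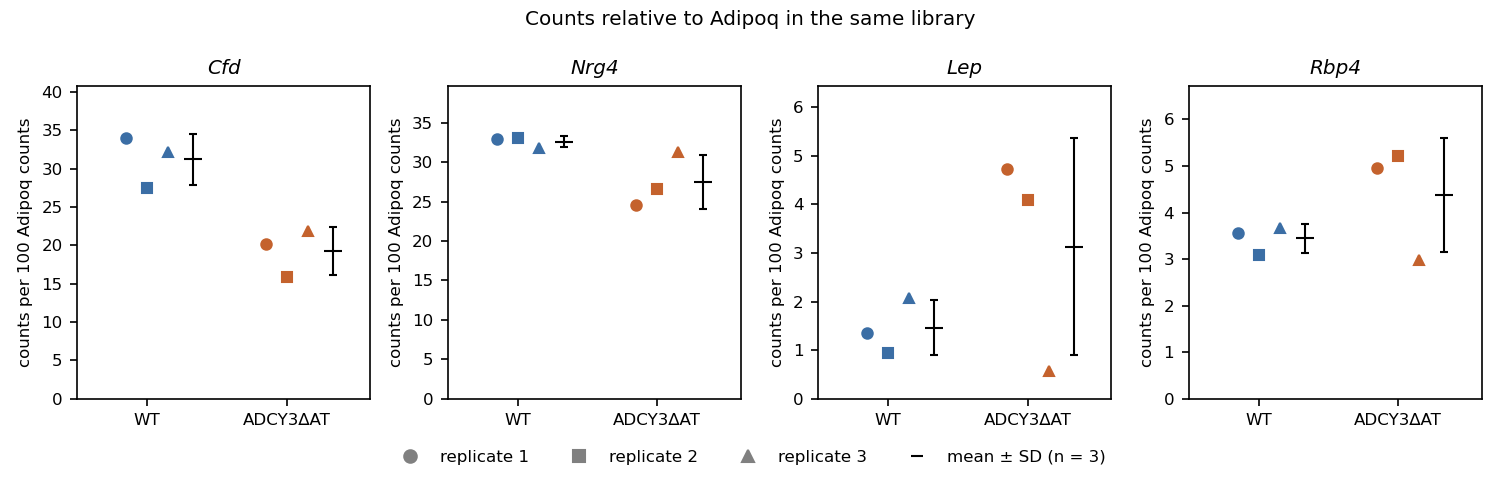
Counts of 4 secreted factors per 100 Adipoq counts of the same library (vertical axis, starting at 0), by genotype, with the mean ± SD of 3 libraries. Cfd and Nrg4 do not overlap between genotypes, while Lep and Rbp4 in ADCY3∆AT replicate 3 (0.574 and 2.98) lie below every WT library.

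Retn (ENSMUSG00000012705, chr8:3655770-3660110, plus strand) encodes resistin, which in mice is made mainly by adipocytes and opposes insulin action. It measured 15.6, 13.0 and 16.6 CPM in WT and 15.0, 11.3 and 9.23 in ADCY3∆AT. ADCY3∆AT replicate 1 lay within the WT range and the other ADCY3∆AT libraries below it. Its log2 fold change was -0.35 ± 0.17 (95% interval -0.74 to 0.042), with an edgeR adjusted p of 0.512. Single libraries moved it, to -0.55 when ADCY3∆AT replicate 1 was left out and -0.20 when replicate 3 was. Of the related genes, Retnla passed the low-count filter and was at 0.43 ± 0.47, with overlapping groups. Summing Retn with Retnla, Retnlb and Retnlg gave -0.22.

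Lep (ENSMUSG00000059201, chr6:29060220-29073877, plus strand) encodes leptin, the hormone that reports fat stores to the brain. It measured 5.67, 4.50 and 9.49 CPM in WT, and 22.9, 17.4 and 2.30 in ADCY3∆AT. ADCY3∆AT replicates 1 and 2 lay above every WT library and replicate 3 below every WT library. The counts behind these values were 311, 198 and 434 in WT and 1048, 857 and 107 in ADCY3∆AT. In the edgeR fit the log2 fold change was 1.12 ± 0.65 (95% interval -0.38 to 2.62) with an edgeR adjusted p of 0.577. Without ADCY3∆AT replicate 3 it was 1.62 with an edgeR adjusted p of 0.065, without replicate 1 it was 0.59, and limma voom on all libraries gave 0.65. Among lymphocyte markers, 8 of 10 were tested and all 8 had fold changes above 0. Their sum, which Ighm leads, was 11.7 to 19.4 CPM in WT and 34.9, 42.6 and 17.6 in ADCY3∆AT replicates 1, 2 and 3, so replicate 3 was again the low one; the part of these cells in the Lep values was not tested. Of 12 white adipocyte markers, which include Lep itself, 7 were tested, 3 with fold changes above 0 and 4 below; Hoxc10 and Tcf21 were listed at 0. Their sum, 667 to 873 CPM in WT and 750 to 827 in ADCY3∆AT, is nearly all Npr3 and says little of the others. Mest measured 5.74, 4.86 and 4.86 CPM in WT and 7.13, 6.95 and 8.20 in ADCY3∆AT, without overlap, with an adjusted p of 0.201 in edgeR and 0.0485 in DESeq2. Nnat measured 6.72, 8.13 and 13.8 CPM in WT and 17.9, 14.3 and 7.49 in ADCY3∆AT, where replicate 3 was the lowest, as for Lep. The part of white adipocytes in the Lep values was not tested.

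Rbp4 (ENSMUSG00000024990, chr19:38116629-38125281, minus strand) encodes the carrier that moves retinol, vitamin A, through the blood. It measured 14.9, 14.6 and 16.9 CPM in WT and 24.0, 22.2 and 11.9 in ADCY3∆AT. As for Lep, ADCY3∆AT replicates 1 and 2 lay above every WT library and replicate 3 below. This gave a log2 fold change of 0.33 ± 0.22 (95% interval -0.19 to 0.84) with an edgeR adjusted p of 0.639. Without ADCY3∆AT replicate 3 it was 0.58, with an edgeR adjusted p of 0.0504, but 0.15 without replicate 1 and 0.22 without replicate 2. Of the genes of retinol transport and retinoid signalling, 15 of 21 were tested. Fold changes were above 0 for 10 and below 0 for 5, and 0 passed in edgeR or DESeq2. An unadjusted p under 0.05 was found for 0, where 11% of all genes had one in edgeR. The lowest p-values were those of Rdh10, a retinol dehydrogenase, at -0.16 ± 0.08, and Rara, a retinoic acid receptor, at 0.19 ± 0.13.

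Agt (ENSMUSG00000031980, chr8:124556534-124569706, minus strand) encodes angiotensinogen, the precursor of the vasoconstrictor angiotensin. It was the least abundant member, at 0.528, 0.659 and 1.09 CPM in WT and 0.569, 0.447 and 0.603 in ADCY3∆AT. These values rest on 29, 29 and 50 counts in WT and 26, 22 and 28 in ADCY3∆AT, and WT replicate 3 alone stood above the rest. The genotypes differed by -0.49 ± 0.34 on the log2 scale (95% interval -1.26 to 0.28), and -0.13 without WT replicate 3. Of the enzymes of the renin-angiotensin system, 9 of 11 were tested, 6 with fold changes above 0 and 3 below, and 0 passed in edgeR or DESeq2. Atp6ap2, the prorenin receptor, was at -0.17 ± 0.07 with groups that did not overlap and an unadjusted p of 0.0431; Ace, which makes angiotensin II, was at 0.20 ± 0.16.

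Nrg4 (ENSMUSG00000032311, chr9:55220222-55326844, minus strand) encodes neuregulin 4, a ligand of the receptor tyrosine kinases Erbb3 and Erbb4 that acts on liver and on nerve endings. It measured 137, 156 and 146 CPM in WT and 119, 113 and 126 in ADCY3∆AT. The highest ADCY3∆AT library, replicate 3, lay below the lowest WT library. The means were 147 ± 9.59 and 119 ± 6.21 CPM (SD, n = 3 each). The log2 fold change was -0.30 ± 0.07 (95% interval -0.45 to -0.14), with an adjusted p of 0.207 in edgeR and 0.0127 in DESeq2. Leaving out 1 library at a time kept it between -0.34 and -0.25, with -0.33 and an edgeR adjusted p of 0.0926 without ADCY3∆AT replicate 3, and without a low-count filter the edgeR adjusted p was 0.0557. Over all alternatives the adjusted p ran from 0.0127 to 0.652.

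The Nrg4 gene overlaps Fbxo22 on the opposite strand, and 4.92% of the 31-base stretches of Nrg4 transcripts are also in Fbxo22 transcripts. The labels do not say whether strand was used in counting. Fbxo22 measured 13.9, 14.6 and 13.7 CPM in WT and 11.6, 13.2 and 12.4 in ADCY3∆AT, far below Nrg4, with a log2 fold change of -0.18 ± 0.07. Of the brown adipocyte markers, 12 of 15 had fold changes below 0. Their sum, which Ucp1 leads, was 17100 to 17762 CPM in WT and 16397 to 16913 in ADCY3∆AT. Of the 15, 6 were lower without overlap, where 8.83% of all genes were, and 0 were higher without overlap. These 6 include the small differences of Ucp1, Cox7a1 and Otop1, at -0.06 ± 0.04, -0.05 ± 0.05 and -0.07 ± 0.05. Of the 3 markers with fold changes above 0, Pdk4 was at 0.36 ± 0.13 with overlapping groups and an unadjusted p of 0.0257 in edgeR. DESeq2 passed 2, against 0.721% of all genes in the lower direction: Gk at -0.31 ± 0.08 and Elovl3 at -0.38 ± 0.11. The part of these marker differences in the Nrg4 values was not tested.

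Bmp8b (ENSMUSG00000002384, chr4:123105165-123132099, plus strand) encodes a bone morphogenetic protein that raises the response of brown fat to sympathetic nerves. It measured 28.2, 19.8 and 20.0 CPM in WT and 13.5, 25.0 and 23.1 in ADCY3∆AT. ADCY3∆AT replicate 1 was the lowest of the 6 libraries and WT replicate 1 the highest, with the others in between. Its log2 fold change was -0.14 ± 0.23 (95% interval -0.66 to 0.38). Its sign turned without WT replicate 1 (0.048) and without ADCY3∆AT replicate 1 (0.083), and it was -0.31 when ADCY3∆AT replicate 2 was left out and -0.23 when replicate 3 was. The close copy Bmp8a, which shares 7.02% of the 31-base stretches of Bmp8b transcripts, had at most 1 count in any library, and summing the copies gave -0.14. Gm17244 and Ppie overlap Bmp8b on the opposite strand and share 7.52% and 2.8% of those stretches; Gm17244 had 6 to 16 counts a library, and Ppie differed by 0.07 ± 0.10.

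Cxcl14 (ENSMUSG00000021508, chr13:56288643-56296551, minus strand) encodes a chemokine that brown fat releases in the cold and that draws in macrophages. It measured 12.3, 9.54 and 9.23 CPM in WT and 11.7, 9.27 and 8.82 in ADCY3∆AT. In each genotype 1 library stood near 12 CPM and the others near 9, and the groups overlapped. On the log2 scale the genotypes differed by -0.06 ± 0.15 (95% interval -0.39 to 0.27), which turned to 0.083 without WT replicate 1 and to 0.015 without ADCY3∆AT replicate 3. Of 12 macrophage markers 11 had fold changes above 0. Their sum, which Lyz2 and Mrc1 lead, was 130 to 204 CPM in WT and 147 to 218 in ADCY3∆AT, with overlapping groups. Of the 12, Itgax and Tnf were higher in ADCY3∆AT without overlap, where 7.68% of all genes were, and 0 were lower without overlap. Both had low levels: Itgax stood at 0.747 to 0.919 CPM in WT and 1.16 to 2.11 in ADCY3∆AT, and Tnf at under 1.1 CPM in every library. Of the 12, 0 passed in edgeR or DESeq2. The part of macrophages in the Cxcl14 values was not tested.

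Metrnl (ENSMUSG00000039208, chr11:121701544-121716306, plus strand) encodes meteorin-like, a hormone of fat and muscle linked to cold and exercise. It measured 8.11, 8.58 and 8.31 CPM in WT and 7.30, 6.64 and 8.57 in ADCY3∆AT. The WT libraries lay close together, and ADCY3∆AT replicate 3 lay among them while the other ADCY3∆AT libraries were lower. The log2 fold change was -0.15 ± 0.11 (95% interval -0.40 to 0.098) with an edgeR adjusted p of 0.652. Leaving out ADCY3∆AT replicate 2 gave -0.071, and leaving out replicate 3 gave -0.26. Its relative Metrn was at 0.04 ± 0.17, and that sign turned when single libraries were left out.

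**Figure D3:**
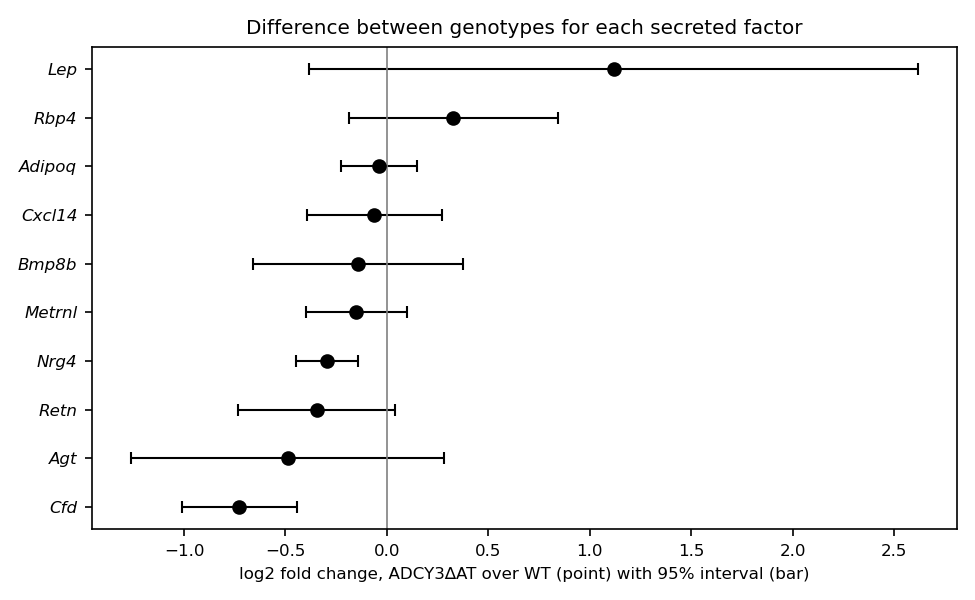
Log2 fold change of each secreted factor, ADCY3∆AT over WT (horizontal axis), as a point with its 95% interval from edgeR's quasi-likelihood fit of 6 libraries. The intervals of Cfd and Nrg4 lie below 0, and the interval of Lep is the widest, from -0.38 to 2.62.

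**Figure D4:**
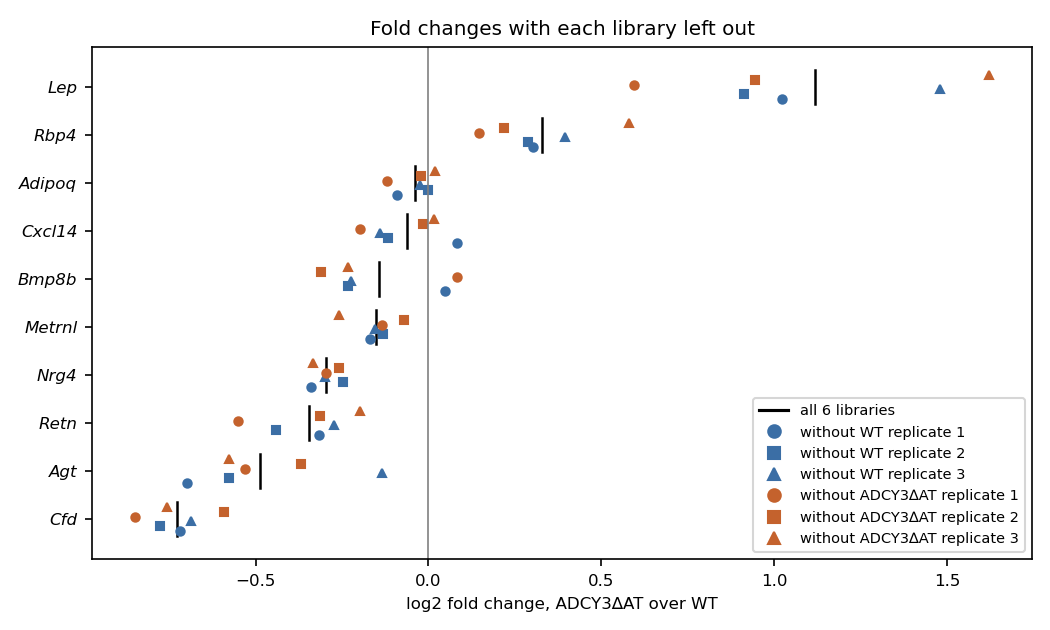
Log2 fold change of each secreted factor, ADCY3∆AT over WT (horizontal axis), with all 6 libraries (vertical tick) and with each library left out (symbols). Cfd stays between -0.85 and -0.59 and Nrg4 between -0.34 and -0.25, while Lep runs from 0.59 to 1.62.

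Other neuregulins, bone morphogenetic proteins, meteorins and their immediate targets were tested for 14 of 19 listed genes. Of these, 8 had fold changes above 0 and 6 below, 0 passed in edgeR or DESeq2, and unadjusted p-values under 0.05 were found for 2 higher and 1 lower. Among all genes 5.23% were higher and 5.78% lower at that unadjusted p in edgeR. The lower 1 was Id2, a target of BMP signalling, at 11.7, 15.6 and 14.9 CPM in WT and 10.3, 11.2 and 10.03 in ADCY3∆AT, a log2 difference of -0.41 ± 0.11. Bmp6 was at 0.26 ± 0.08.

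The receptors of the 10 factors were measured in the same tissue for 17 of 23 listed genes. Their median log2 fold change was 0.05, with 10 above 0 and 7 below. Without overlap between genotypes 3 of the 17 were higher and 3 lower, where 7.68% and 8.83% of all genes were. An unadjusted p under 0.05 in edgeR was found for 3 higher and 2 lower, where 5.23% and 5.78% of all genes had one. Whether these shares differ was not tested. In edgeR 0 passed the adjusted threshold, and in DESeq2 1 of 17 did, against 1.17% of all genes. That 1 was Bmpr1a, a type I receptor for bone morphogenetic proteins, at 59.9, 61.0 and 57.6 CPM in WT and 50.7, 49.3 and 46.0 in ADCY3∆AT. The groups did not overlap, and the log2 fold change was -0.29 ± 0.05 with an adjusted p of 0.158 in edgeR and 0.0146 in DESeq2. Of the adiponectin receptors, Adipor2 was at -0.12 ± 0.05 and the cadherin Cdh13 at 0.16 ± 0.07. Adipor1, named after its values were seen, was at 0.05 ± 0.05 with overlapping groups. The activin receptor Acvr2a was at 0.16 ± 0.05 and Kit, which binds stem cell factor, at 0.57 ± 0.18. Lepr, the leptin receptor, and Erbb4 were named for their ligands after their values were seen. Lepr measured 0.632 ± 0.369 CPM in WT and 0.390 ± 0.0759 in ADCY3∆AT, and Erbb4 8.92 ± 0.704 and 10.4 ± 1.24, both with overlapping groups. Stra6, the receptor for retinol-binding protein, was listed at 0.

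Of 51 further secreted factors of fat listed, 46 were tested, 29 with fold changes above 0 and 17 below, with a median of 0.14; among all genes 50.9% were above 0. Of the 46, 12 did not overlap between genotypes, all 12 higher, where 7.68% of all genes were higher without overlap. An unadjusted p under 0.05 was found for 10 higher, where 5.23% of all genes were, and for 1 lower, where 5.78% were. In edgeR 0 of the 46 passed, and DESeq2 passed 1, against 1.17% of all genes. Whether these shares differ from those of all genes was not tested. That 1 was Apln, encoding apelin, a peptide that acts on blood vessels, at 10.5, 9.17 and 10.02 CPM in WT and 13.0, 13.7 and 15.5 in ADCY3∆AT. Its log2 fold change was 0.50 ± 0.09, with an adjusted p of 0.158 in edgeR and 0.00589 in DESeq2. The lipid transfer protein gene Pltp was at 0.22 ± 0.07 and Ptgds, a prostaglandin D synthase, at 0.31 ± 0.10. The cytokine genes Gdf15 and Tnf were at 0.78 ± 0.26 and 1.02 ± 0.31, Tnf at under 1.1 CPM in every library.

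For comparison of levels between genes, CPM were divided by the summed length of annotated exons in kilobases (RPKM). In WT the order of mean levels was Adipoq at 326 ± 21.4 RPKM, Cfd at 152 ± 9.47, Nrg4 at 24.1 ± 1.58, Rbp4 at 11.5 ± 0.939, Retn at 9.53 ± 1.18, Bmp8b at 5.84 ± 1.24, Cxcl14 at 5.67 ± 0.920, Metrnl at 5.26 ± 0.1501, Lep at 1.95 ± 0.779 and Agt at 0.402 ± 0.156 (SD, n = 3). Bmp8b, Cxcl14 and Metrnl did not differ beyond their spread, and Rbp4 and Retn were also close. Adiponectin and adipsin stood above the other 8 in every library. In ADCY3∆AT Cfd was at 91.7 ± 16.8 RPKM and Nrg4 at 19.7 ± 1.02, each in the same place. Bmp8b and Cxcl14 exchanged places there, at 5.29 ± 1.59 and 5.44 ± 0.848. Lep, at 6.83, 5.19 and 0.687 RPKM in ADCY3∆AT, ranged over the levels of Metrnl, Cxcl14 and Bmp8b. With the length of the longest transcript in place of all exons, Nrg4 was at 70.0 RPKM in WT, still the third of the 10.

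The genes with the profile nearest to that of Cfd over the 6 libraries were found by the root mean square difference of centred log2 CPM, among the 12193 tested genes whose mean log2 CPM reached 1. They were Slc35e3 at 0.130, Slc43a1 at 0.139, Cfap69 at 0.139, Chst12 at 0.158 and Rorb at 0.160, where Cfd varied about its own mean by 0.407. Slc35e3 measured 6.05, 6.11 and 6.28 CPM in WT and 4.13, 3.56 and 4.48 in ADCY3∆AT. In all 5 the ADCY3∆AT libraries lay below the WT libraries, as the choice by likeness to Cfd largely fixes.

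For Lep, which varied about its mean by 1.13, the nearest genes were less alike: Hephl1 at 0.520, Ntrk3 at 0.556, Acly at 0.586, Fasn at 0.609 and Sncg at 0.654. Fasn, fatty acid synthase, measured 1736, 1410 and 1832 CPM in WT and 5303, 4080 and 1661 in ADCY3∆AT. Acly, ATP citrate lyase, measured 193, 167 and 207 CPM in WT and 570, 439 and 173 in ADCY3∆AT. In each of the 5 the groups overlapped through ADCY3∆AT replicate 3 alone, which lay with or below the WT libraries. Without that library Acly, Fasn and Ntrk3 passed in edgeR, at 1.42, 1.499 and 1.30 on the log2 scale with adjusted p-values of 0.0126, 0.0134 and 0.0424. In that fit 0.355% of all genes passed. The choice by likeness to Lep, with replicate 3 low, largely fixes this, so it is no separate support.

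**Figure D5:**
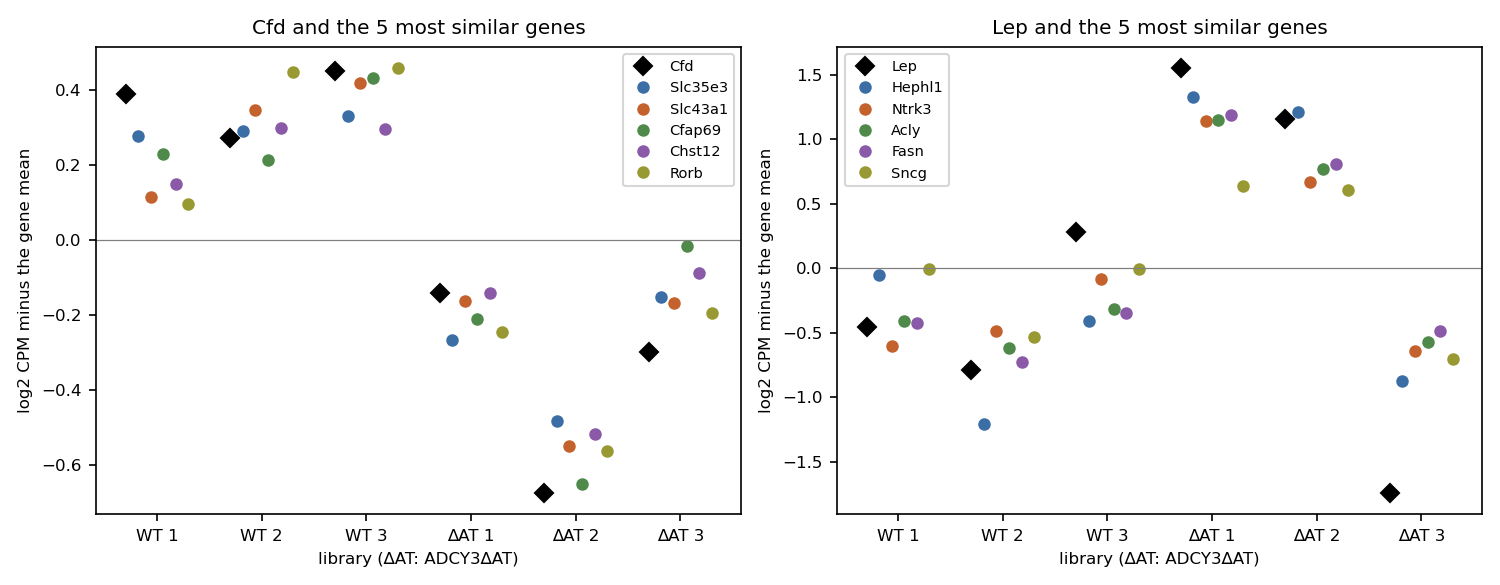
Centred log2 CPM (vertical axis) in the 6 libraries (horizontal axis) of Cfd and of Lep (diamonds), each with the 5 genes of nearest profile (circles). The Cfd group is lower in all 3 ADCY3∆AT libraries, and the Lep group is high in ADCY3∆AT replicates 1 and 2 and not in replicate 3.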

How the data were processed

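The table deposited by the authors holds estimated counts per gene; 31.6% of its values are not whole. The submitters' processing notes name StringTie, Salmon, edgeR and GRCm38, without versions or roles; the sources used here do not say whether strand was used in counting. Counts were rounded. In R 4.3.3 all genes were fitted by genotype with edgeR 4.0.16 (TMM, filterByExpr, quasi-likelihood F test, Benjamini-Hochberg over 18114 genes, threshold 0.05). DESeq2 1.42.0, limma voom 3.58.1, other scalings, other filters and leaving out each library were alternatives, and the script was tested on simulated data. Gene names and positions are from GENCODE M21 (GRCm38); 254 rows had no symbol. Total counts were 44826777 to 54933588 a library, and the precision of each value is limited by 3 libraries a group.

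Members and gene lists were chosen with earlier results of these data known. Named were the members, the reference genes Ucp1, Plin1, Fabp4, Bmp8a, Metrn, Retnla and Adcy3, the 2 genes of lowest p in each list (5 for receptors and other secreted factors), and the 5 genes of nearest profile to Cfd and to Lep. For marker lists of cell types, sums and counts are given, and the genes that lead or depart from a sum were named after their values were seen.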

Additional observations from a re-analysis of the deposited data

How the results depend on the processing

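The 0 members passing in edgeR became 2 with DESeq2 (Cfd and Nrg4) and 1 without a low-count filter (Cfd), and stayed 0 in every fit that left out a library. The count over all genes, 1 in edgeR, was 232 with DESeq2, 214 without a low-count filter, 2 with limma voom, 2 with its quality weights and 2 with robust edgeR. It ran from 1 to 66 when single libraries were left out; the 66 came without ADCY3∆AT replicate 3. The cause was not tested. With the replicate number as a block 3 genes passed and 0 members. Same-numbered libraries did not deviate together (correlations -0.0857, -0.128 and -0.0864), and 0 correlated best with their own number. These values gave no sign that the numbers pair the samples, but 3 libraries a group are too few to exclude pairing. No member changed sign under another scaling, which moved the median of all genes by at most 0.0153 on the log2 scale. Of 171 member values under alternatives 5 changed sign, each with 1 library left out: those ranges were -0.12 to 0.019 for Adipoq, -0.31 to 0.083 for Bmp8b and -0.20 to 0.083 for Cxcl14. Among other named genes they were -0.026 to 0.094 for Plin1, -0.029 to 0.063 for Fabp4 and -0.038 to 0.18 for Metrn. Agt was not tested under a minimum of 1 CPM. The length of the longest transcript, an alternative chosen after seeing the data, changed the order of 1 pair of members in WT. Agt rests on 22 to 50 counts a library.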

Other observations

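Transcription factors and coregulators listed here as regulators of adipokine genes were tested for 17 of 17 listed genes. The list was chosen with earlier results of these data known, and action on adipokine genes was not tested. In edgeR 0 passed, with 2 higher and 2 lower at an unadjusted p under 0.05, and DESeq2 passed 4 of 17, against 1.17% of all genes. Of all genes 5.23% were higher and 5.78% lower at that unadjusted p; whether the shares differ was not tested. Zbtb16 measured 32.1, 34.9 and 29.8 CPM in WT and 56.99, 82.1 and 47.3 in ADCY3∆AT, a log2 fold change of 0.95 ± 0.18 with an adjusted p of 0.158 in edgeR and 0.0183 in DESeq2; without ADCY3∆AT replicate 3 it passed in edgeR, at 1.11 with an adjusted p of 0.0424. Ppara, a nuclear receptor for fatty acids, measured 292, 253 and 269 CPM in WT and 335, 346 and 333 in ADCY3∆AT, a log2 fold change of 0.32 ± 0.06 with a DESeq2 adjusted p of 0.00226. Of the 17, 2 were higher without overlap between genotypes, Zbtb16 and Ppara, and 3 were lower, where 7.68% and 8.83% of all genes were. Rreb1 and Srebf1, the other 2 genes DESeq2 passed, were named after their values were seen. They were at -0.39 ± 0.09 and -0.29 ± 0.08, both among the 3 lower without overlap. Pparg and Cebpa, master regulators of the adipocyte programme and also named afterwards, were at 0.0024 ± 0.05 and -0.10 ± 0.07, with overlapping groups.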
